A study of Schizosaccharomyces pombe with 16 samples.

Results

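Vacuolar sorting and vacuolar ATPase genes of the fission yeast Schizosaccharomyces pombe were followed over 8 groups of strain, nitrogen supply and temperature. They are the 51 probe sets, of 4999 on the array, whose gene symbol in the platform's probe-to-gene table starts with vps, vma, vph or vam and a number, together with ypt7, cpy1, isp6 and psp3. Each stands for a different gene, and the rule used names, not measured values.

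One strain bore fcp1-452, an allele of fcp1 that is temperature-sensitive. Fcp1 is the phosphatase that acts on the repeated C-terminal tail of RNA polymerase II. The other strain was the wild type L972 (WT). Polyadenylated RNA of both was measured on Affymetrix arrays, deposited in 2 sets of 8 of which set 2 holds fed cells alone. Cells without nitrogen (-N) were in EMM2-N, the minimal medium EMM2 lacking its nitrogen source, and cells with nitrogen (+N) were in EMM2, so all groups shared the base medium. There was 1 sample each of fcp1-452 -N at 37 °C, fcp1-452 -N at 26 °C, WT -N at 37 °C and WT -N at 26 °C. There were 2 samples each of fcp1-452 +N at 37 °C, fcp1-452 +N at 26 °C, WT +N at 37 °C and WT +N at 26 °C. The labels call fcp1-452 +N at 37 °C incubated, and the other 3 groups with nitrogen logarithmically growing, so growth state and group cannot be told apart there. A single allele stands for loss of Fcp1 function, and how long cells were held at 37 °C or starved was not stated. The fcp1 transcript cannot check a temperature-sensitive allele; its difference between fcp1-452 and WT at 37 °C with nitrogen was -0.24 ± 0.12 (adjusted p = 0.169, limma).

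The vacuole is the acidic, degradative compartment of the yeast cell. The V-ATPase acidifies it: its V1 sector in the cytosol splits ATP, and its Vo sector in the membrane carries protons inward. Vps proteins bring enzymes and membrane to it from the Golgi and the endosome through tethering complexes, the ESCRT complexes that sort membrane proteins into internal vesicles, and the retromer and GARP complexes that return sorting receptors. When nitrogen runs out, fission yeast recycles its own protein through this compartment by autophagy.

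Every value below is a log2 ratio, taken against the median of that probe set over the 8 set 2 arrays, all of which had nitrogen, so 0 is a typical level with nitrogen. Such a scale holds no level that could be compared between genes. Differences are given as log2 difference ± SE from limma, with Benjamini-Hochberg adjustment over all 4999 probe sets, and a gene is said to have risen or fallen only at an adjusted p under 0.05. With nitrogen n = 2 per group, without nitrogen n = 1, and tests on -N samples borrow their spread from the +N groups. Fewer cells of a type and less RNA per cell cannot be told apart in such values.

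Among the 4 -N samples, fcp1-452 at 37 °C stood apart from the other 3. Over all 4999 probe sets it correlated with them at r = 0.538 to 0.613, while the other 3 correlated among themselves at 0.818 to 0.957. For the 51 genes the same figures were 0.469 to 0.565 and 0.931 to 0.993. Many results that rest on this sample are therefore given with and without it. The plot of all members by sample shows its column beside the others.

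**Figure D1:**
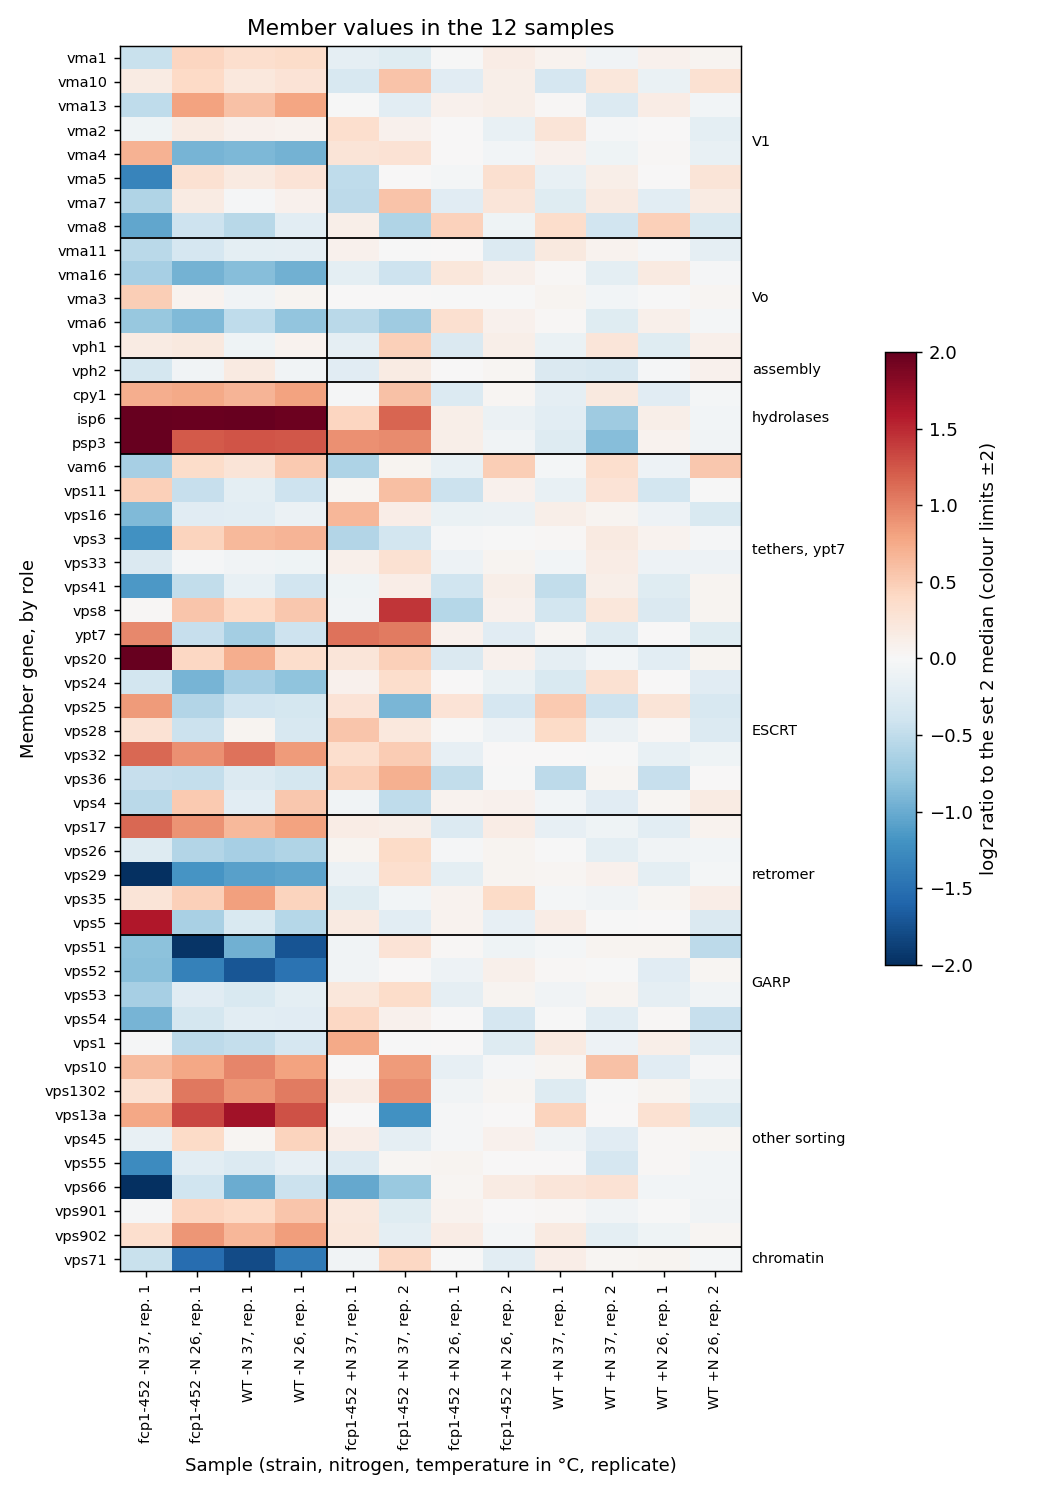
Colour gives the log2 ratio to the set 2 median (limits at ±2) of the 51 genes, in rows by role, in the 12 samples, in columns with the 4 samples without nitrogen on the left. The protease genes isp6 and psp3 are red in all 4 starved samples, vps51 and vps52 of GARP are blue there, and the leftmost column (fcp1-452 -N at 37 °C) differs from its 3 neighbours in many rows, reaching 3.38 for vps20 and -2.95 for vps29.

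Nitrogen starvation moved most of these genes, in both directions. Averaged over both strains and both temperatures, 18 of the 51 rose and 20 fell. Over the whole array 72.2% of probe sets passed this test, 33.9% higher and 38.2% lower, so the shares of 35.3% and 39.2% here were near the background. The median difference was 0.03, against -0.03 for all probe sets. Counts for the role groups below rest on few genes each and are to be read beside the shares of all probe sets. Within the 38 genes that changed, the direction was the same in all 4 conditions for 32 (84.2%), against 2774 of 3607 probe sets that passed (76.9%). After quantile normalization 23 of the 51 passed: vam6, vma11, vma13, vps1302, vps13a, vps16, vps24, vps26, vps28, vps3, vps35, vps54, vps55, vps901 and vps902 were lost with the same sign, and vps53 with the opposite one. Without the replicate block 28 passed, and vam6, vma8, vma10, vph1, vps1, vps3, vps8, vps25, vps28 and vps54 did not. Without starved fcp1-452 at 37 °C 20 rose and 18 fell, 35 of them called in both.

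The 3 vacuolar hydrolase genes all rose. The gene isp6 encodes a subtilisin-type serine protease of the vacuole. Its values were 2.70 in fcp1-452 at 37 °C, 1.98 in fcp1-452 at 26 °C, 2.10 in WT at 37 °C and 1.96 in WT at 26 °C without nitrogen. With nitrogen it was at 0.44 and 1.16 in fcp1-452 at 37 °C, 0.12 and -0.12 in fcp1-452 at 26 °C, -0.22 and -0.71 in WT at 37 °C, and 0.12 and -0.06 in WT at 26 °C. All 4 starved samples lay above all 8 fed ones, and the rise was 2.07 ± 0.20, or 4.2-fold (adjusted p = 0.000295).

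The related protease gene psp3 was at 1.99, 1.23, 1.25 and 1.24 in the same order of starved samples. With nitrogen it was at 0.92 and 0.95 in fcp1-452 at 37 °C, 0.12 and -0.08 in fcp1-452 at 26 °C, -0.26 and -0.84 in WT at 37 °C, and 0.07 and -0.06 in WT at 26 °C. Again no fed sample reached the starved ones, and psp3 rose by 1.22 ± 0.12 (adjusted p = 0.00026).

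For cpy1, which encodes carboxypeptidase Y, the starved values were 0.72, 0.77, 0.67 and 0.80 in the same order. The fed values were -0.02 and 0.59 in fcp1-452 at 37 °C, -0.27 and 0.03 in fcp1-452 at 26 °C, -0.18 and 0.20 in WT at 37 °C, and -0.23 and -0.04 in WT at 26 °C. The groups did not overlap, although the second fed mutant sample at 37 °C came close, and the rise was 0.91 ± 0.09 (adjusted p = 0.000313). The receptor gene vps10, whose product carries carboxypeptidase Y out of the Golgi in budding yeast, rose alongside by 0.88 ± 0.14 (adjusted p = 0.0018). Its starved values were 0.63 in fcp1-452 at 37 °C, 0.78 in fcp1-452 at 26 °C, 0.97 in WT at 37 °C and 0.81 in WT at 26 °C. Fed samples were at 0.01 and 0.86 in fcp1-452 at 37 °C, -0.17 and -0.02 in fcp1-452 at 26 °C, 0.04 and 0.58 in WT at 37 °C, and -0.22 and -0.02 in WT at 26 °C, so the highest fed sample overlapped the starved ones.

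**Figure D2:**
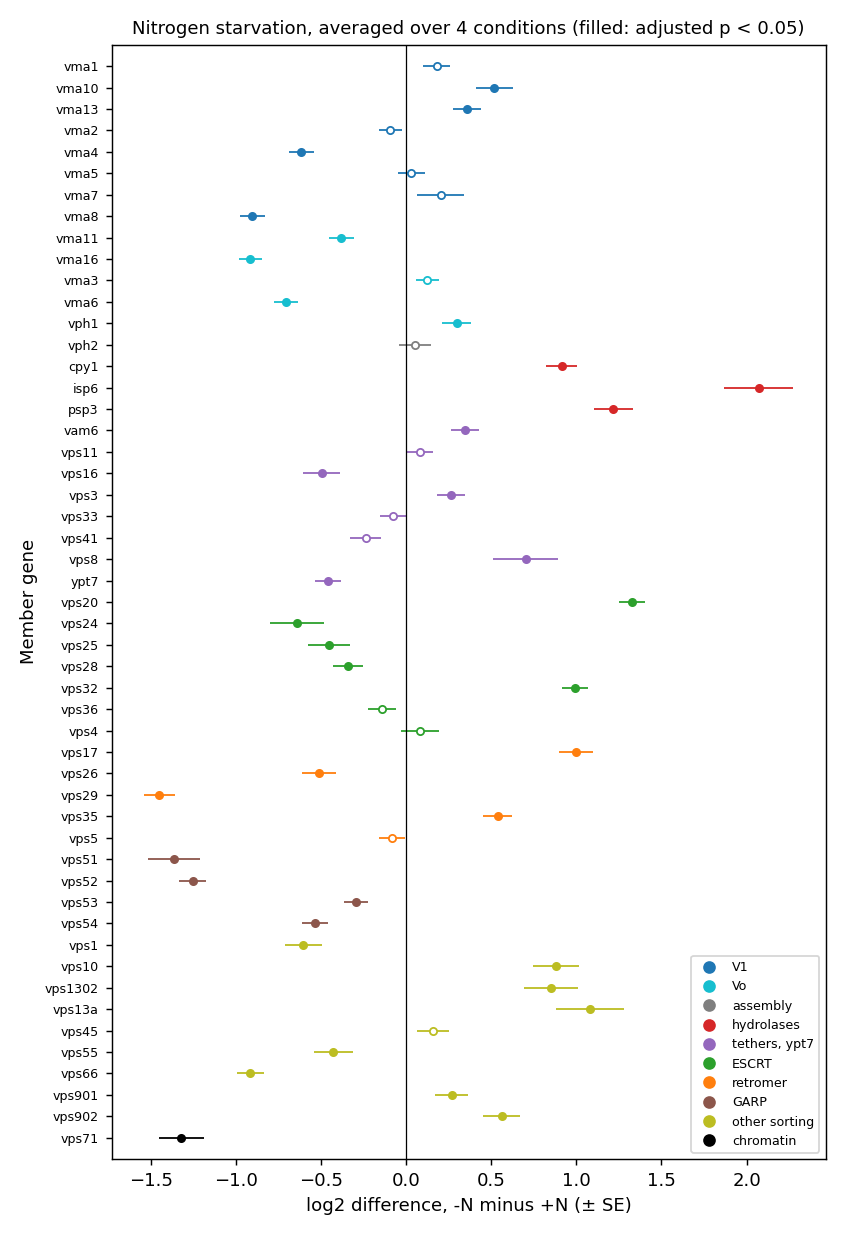
Points are limma log2 differences, -N minus +N averaged over both strains and both temperatures, with SE as bars, for the 51 genes coloured by role; filled points have an adjusted p under 0.05. The hydrolases all lie to the right (0.91 to 2.07) and the GARP genes all to the left (-0.30 to -1.36; vps53, the nearest to 0, was at 0.06 after quantile normalization), while the V-ATPase sectors, ESCRT and retromer spread over both sides.

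The 14 V-ATPase genes did not move as a block on starvation. Of the 13 V1 and Vo genes 23.1% rose and 38.5% fell, against 33.9% and 38.2% of all probe sets. Of the 8 genes of the V1 sector 2 rose, vma10 (0.52 ± 0.11) and vma13 (0.36 ± 0.08), and 2 fell, vma8 (-0.90 ± 0.07) and vma4 (-0.62 ± 0.07). The catalytic subunit gene vma1 stood at 0.18 ± 0.08 and its partner vma2 at -0.09 ± 0.07, and neither passed the test. Of the 5 genes of the Vo sector 1 rose, the large membrane subunit vph1 (0.30 ± 0.08), and 3 fell, vma16 (-0.92 ± 0.07), vma6 (-0.71 ± 0.07) and vma11 (-0.38 ± 0.07). Vma16 and Vma11 are proteolipids of the proton-carrying ring, and the third, vma3, was at 0.13 ± 0.07 and did not pass. The assembly factor gene vph2 was at 0.05 ± 0.09.

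The V1 counts leaned on fcp1-452 at 37 °C. In that sample vma5 was at -1.32, against 0.31 in fcp1-452 at 26 °C, 0.18 in WT at 37 °C and 0.27 in WT at 26 °C, all without nitrogen. The gene vma4 went the other way, with 0.69 there against -0.93, -0.90 and -0.95 in the other 3 samples in that order. Without that sample, V1 genes were higher in 4 cases and lower in 2, vma1 (0.32 ± 0.09, adjusted p = 0.0195) and vma5 (0.34 ± 0.09, adjusted p = 0.0159) being the additions. For vma13 the rise without it was 0.64 against 0.36 with all 4 samples, and for vma4 the fall was -0.94 against -0.62.

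The 4 genes of GARP, which tethers vesicles from endosomes to the Golgi, all fell in starved cells, though vps53 did so only while starved fcp1-452 at 37 °C was kept and was at 0.06 after quantile normalization. The values of vps51 were -0.82 in fcp1-452 at 37 °C, -1.97 in fcp1-452 at 26 °C, -0.96 in WT at 37 °C and -1.72 in WT at 26 °C, against -0.06 and 0.27, 0.03 and -0.08, -0.03 and 0.06, and 0.06 and -0.53 in the matching fed groups. Both starved samples at 37 °C were thus higher than both at 26 °C, and all 4 lay below the fed samples. The difference was -1.36 ± 0.16 (adjusted p = 0.000531).

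The second GARP gene, vps52, fell (-1.25 ± 0.08, adjusted p = 7.87e-05). It was at -0.84 in fcp1-452 at 37 °C, -1.36 in fcp1-452 at 26 °C, -1.71 in WT at 37 °C and -1.48 in WT at 26 °C, and no fed sample came near. The fed values were -0.07 and 0.01 in fcp1-452 at 37 °C, -0.10 and 0.10 in fcp1-452 at 26 °C, 0.03 and -0.01 in WT at 37 °C, and -0.23 and 0.04 in WT at 26 °C. The falls of vps54 (-0.54 ± 0.08) and vps53 (-0.30 ± 0.07) were smaller. Without fcp1-452 at 37 °C vps54 was at -0.26, still called, and vps53 was at -0.10 (adjusted p = 0.297) and no longer passed.

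Of the 5 retromer genes 2 rose and 2 fell, where 33.9% of all probe sets rose and 38.2% fell. The gene vps29, of a subunit of the cargo-binding part, fell (-1.45 ± 0.09, adjusted p = 7.25e-05). Its starved values were -2.95 in fcp1-452 at 37 °C, -1.18 in fcp1-452 at 26 °C, -1.08 in WT at 37 °C and -1.06 in WT at 26 °C, all below every fed sample. With nitrogen vps29 was at -0.12 and 0.34 in fcp1-452 at 37 °C, -0.20 and 0.05 in fcp1-452 at 26 °C, 0.03 and 0.09 in WT at 37 °C, and -0.19 and -0.04 in WT at 26 °C. The groups did not overlap, and without fcp1-452 at 37 °C the fall was -0.95, smaller than those of vps71 (-1.56), vps51 (-1.50), vps52 (-1.42) and vma16 (-1.07).

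In contrast vps17, a sorting nexin of the membrane-binding part, rose by 1.00 ± 0.10 (adjusted p = 0.000308). It was at 1.14, 0.90, 0.65 and 0.80 in the same order of starved samples, against fed values of 0.14 and 0.12 in fcp1-452 at 37 °C, -0.28 and 0.15 in fcp1-452 at 26 °C, -0.16 and -0.08 in WT at 37 °C, and -0.21 and 0.08 in WT at 26 °C, with no overlap. The core subunit gene vps35 rose by 0.54 ± 0.08, and vps26 fell by 0.51 on the log2 scale. The partner of Vps17, encoded by vps5, was at 1.60 in starved fcp1-452 at 37 °C but at -0.65, -0.31 and -0.57 in the other 3 starved samples. Fed samples had 0.18 and -0.21 in fcp1-452 at 37 °C, 0.07 and -0.17 in fcp1-452 at 26 °C, 0.14 and 0.00 in WT at 37 °C, and 0.01 and -0.29 in WT at 26 °C. The averaged difference of -0.08 ± 0.08 did not pass, while without that sample it fell, at -0.61 ± 0.09 (adjusted p = 0.00136).

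Of the 7 ESCRT genes 2 rose and 3 fell. Both that rose encode ESCRT-III, which pinches vesicles into the endosome: vps20 rose by 1.33 ± 0.07 (adjusted p = 5.2e-05) and vps32 by 0.99 ± 0.07 (adjusted p = 0.000112). For vps20 the starved values were 3.38 in fcp1-452 at 37 °C, 0.41 in fcp1-452 at 26 °C, 0.73 in WT at 37 °C and 0.35 in WT at 26 °C. The fed values were 0.24 and 0.47 in fcp1-452 at 37 °C, -0.28 and 0.08 in fcp1-452 at 26 °C, -0.18 and -0.05 in WT at 37 °C, and -0.21 and 0.05 in WT at 26 °C. The single value of 3.38 stood far above all others, and without it the rise of vps20 was 0.72 (adjusted p = 0.000642).

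Another ESCRT-III gene, vps24, fell (-0.64 ± 0.16), as did vps25 of ESCRT-II (-0.45 ± 0.12) and vps28 of ESCRT-I (-0.34 ± 0.09). Without fcp1-452 at 37 °C the fall of vps25 was -0.86. Neither vps36 of ESCRT-II (-0.14 ± 0.08) nor vps4, the ATPase that takes ESCRT-III apart (0.08 ± 0.11), passed the test. Among ESCRT-III genes under other names, did2 (0.75 ± 0.08) and did4 (0.51 ± 0.13, or 0.72 without starved fcp1-452 at 37 °C) rose.

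HOPS and CORVET tether membranes to the vacuole and the early endosome. Of the 8 genes of these complexes with ypt7, whose product is the Rab7 GTPase of vacuole fusion, 3 rose and 2 fell. The CORVET genes vps8 (0.70 ± 0.19, or 1.03 without starved fcp1-452 at 37 °C) and vps3 (0.27 ± 0.08) rose with the HOPS gene vam6 (0.34 ± 0.08). Those that fell were the shared core gene vps16 (-0.50 ± 0.11) and ypt7 (-0.46 ± 0.08, adjusted p = 0.00287). Without fcp1-452 at 37 °C the rise of vps3 was 0.59, and vps16 (-0.20, adjusted p = 0.185) no longer passed. Without the replicate block vps8 was at 0.32 (adjusted p = 0.433).

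Other sorting genes rose in 5 and fell in 3 of 9 cases. The platform's vps13a, now named vps1301, belongs to a family of lipid transfer proteins. It was at 0.77 in fcp1-452 at 37 °C, 1.34 in fcp1-452 at 26 °C, 1.67 in WT at 37 °C and 1.27 in WT at 26 °C when starved, above every fed sample. Its fed values were 0.01 and -1.21 in fcp1-452 at 37 °C, -0.02 and 0.01 in fcp1-452 at 26 °C, 0.45 and 0.01 in WT at 37 °C, and 0.30 and -0.30 in WT at 26 °C. The groups did not overlap, and it rose by 1.08 ± 0.20 (adjusted p = 0.00379). Its paralogue vps1302 rose by 0.85 ± 0.16, or by 1.18 without starved fcp1-452 at 37 °C. Rises were also called for vps902 (0.56 ± 0.11), now named muk1, and vps901 (0.27 ± 0.10), both exchange factors of the Rab5 family. The dynamin gene vps1 (-0.60 ± 0.11), vps66 (-0.92 ± 0.08), a predicted acyltransferase gene, and the endosomal gene vps55 (-0.43 ± 0.12) fell. For vps66 the fall without starved fcp1-452 at 37 °C was -0.65. Without starved fcp1-452 at 37 °C vps55 was at -0.18 (adjusted p = 0.251).

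One gene of this name series does not belong to the vacuole: vps71, also called swc6, encodes a subunit of the SWR1 chromatin complex. It fell by 1.32 on the log2 scale (SE 0.13, adjusted p = 0.000308). Its starved values were -0.45 in fcp1-452 at 37 °C, -1.53 in fcp1-452 at 26 °C, -1.78 in WT at 37 °C and -1.41 in WT at 26 °C, against fed values of -0.07 and 0.41 in fcp1-452 at 37 °C, -0.01 and -0.21 in fcp1-452 at 26 °C, 0.13 and 0.03 in WT at 37 °C, and 0.06 and -0.04 in WT at 26 °C. All starved samples lay below all fed ones, starved fcp1-452 at 37 °C the least.

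At 37 °C with nitrogen, fcp1-452 changed a share of these genes close to that of the array. Relative to 26 °C, 12 of the 51 rose and 7 fell, where 39.9% of all probe sets passed, 17.8% higher and 22.1% lower. The members' shares were 23.5% higher and 13.7% lower, and their median was 0.18, against -0.04 for all probe sets. Among those that passed, ypt7 alone differed by 2-fold or more. Tethers and ESCRT supplied 8 of the 12 rises, and the V-ATPase had none.

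The gene ypt7 was at 1.09 and 1.04 in fcp1-452 at 37 °C, against 0.09 and -0.22 in fcp1-452 at 26 °C. In WT it was at 0.03 and -0.25 at 37 °C and at 0.01 and -0.23 at 26 °C. Both mutant samples at 37 °C lay far above every other fed sample, and the rise was 1.13 ± 0.11, or 2.19-fold (adjusted p = 0.0022). Among the tethers vps16 (0.52 ± 0.15) and vps11 (0.49 ± 0.11) rose, as did vps8, whose rise of 0.92 ± 0.27 (adjusted p = 0.0413) was larger in replicate 2. Fed values of vps8 were -0.07 and 1.42 in fcp1-452 at 37 °C, -0.58 and 0.09 in fcp1-452 at 26 °C, -0.37 and 0.23 in WT at 37 °C, and -0.29 and 0.05 in WT at 26 °C, and starved ones 0.02 in fcp1-452 at 37 °C, 0.55 in fcp1-452 at 26 °C, 0.40 in WT at 37 °C and 0.54 in WT at 26 °C. The CORVET gene vps3 was at -0.58 and -0.36 in fcp1-452 at 37 °C, -0.02 and 0.00 in fcp1-452 at 26 °C, 0.03 and 0.18 in WT at 37 °C, and 0.07 and -0.02 in WT at 26 °C, and it (-0.46 ± 0.12) and vam6 (-0.45 ± 0.12) fell.

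Of the 7 ESCRT genes 4 rose and 0 fell in the mutant at 37 °C relative to 26 °C. The ESCRT-II gene vps36 was at 0.48 and 0.71 at 37 °C, against -0.49 and -0.01 at 26 °C, and rose by 0.84 ± 0.12 (adjusted p = 0.00471). Smaller rises were those of vps32 (0.49 ± 0.10), vps20 (0.45 ± 0.11) and vps28 (0.43 ± 0.13). GARP genes vps54 (0.41 ± 0.11) and vps53 (0.36 ± 0.10) rose, and vps1 rose (0.50 ± 0.15). No retromer gene passed the test, with differences from -0.37 to 0.20.

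Of the 13 V1 and Vo genes 4 fell (30.8%) and none rose, where 22.1% of all probe sets were lower and 17.8% higher. The Vo stalk subunit gene vma6 was at -0.55 and -0.71 in fcp1-452 at 37 °C, 0.32 and 0.09 in fcp1-452 at 26 °C, 0.02 and -0.24 in WT at 37 °C, and 0.10 and -0.04 in WT at 26 °C. Both mutant samples at 37 °C were the lowest of the fed samples, and it fell by 0.83 on the log2 scale (SE 0.10, adjusted p = 0.00304). The ring gene vma16 (-0.47 ± 0.10), and vma8 (-0.43 ± 0.10) and vma5 (-0.38 ± 0.11) of the stalks of V1, fell less. The remaining 9 ranged from -0.28 for vma1 to 0.29 for vma4.

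The largest fall was that of vps66. It was at -1.02 and -0.73 in fcp1-452 at 37 °C, 0.04 and 0.16 in fcp1-452 at 26 °C, 0.23 and 0.28 in WT at 37 °C, and -0.06 and -0.06 in WT at 26 °C. Again both mutant samples at 37 °C lay below the rest, a difference of -0.98 ± 0.11 (adjusted p = 0.00291). Of the hydrolases psp3 rose (0.91 ± 0.16, adjusted p = 0.0091), while isp6 (0.80 ± 0.29) and cpy1 (0.40 ± 0.13) did not pass. The count of 19 fell to 4 without the replicate block, 10 after quantile normalization (vma5, vma8 and vma16 were lost in both). The 4 left without the block were psp3, vma6, vps66 and ypt7, so no ESCRT or GARP gene passed there. The count was 4 and 3 without fcp1-452 at 26 °C replicates 1 and 2. Leaving out a WT sample gave 10 or 11.

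**Figure D3:**
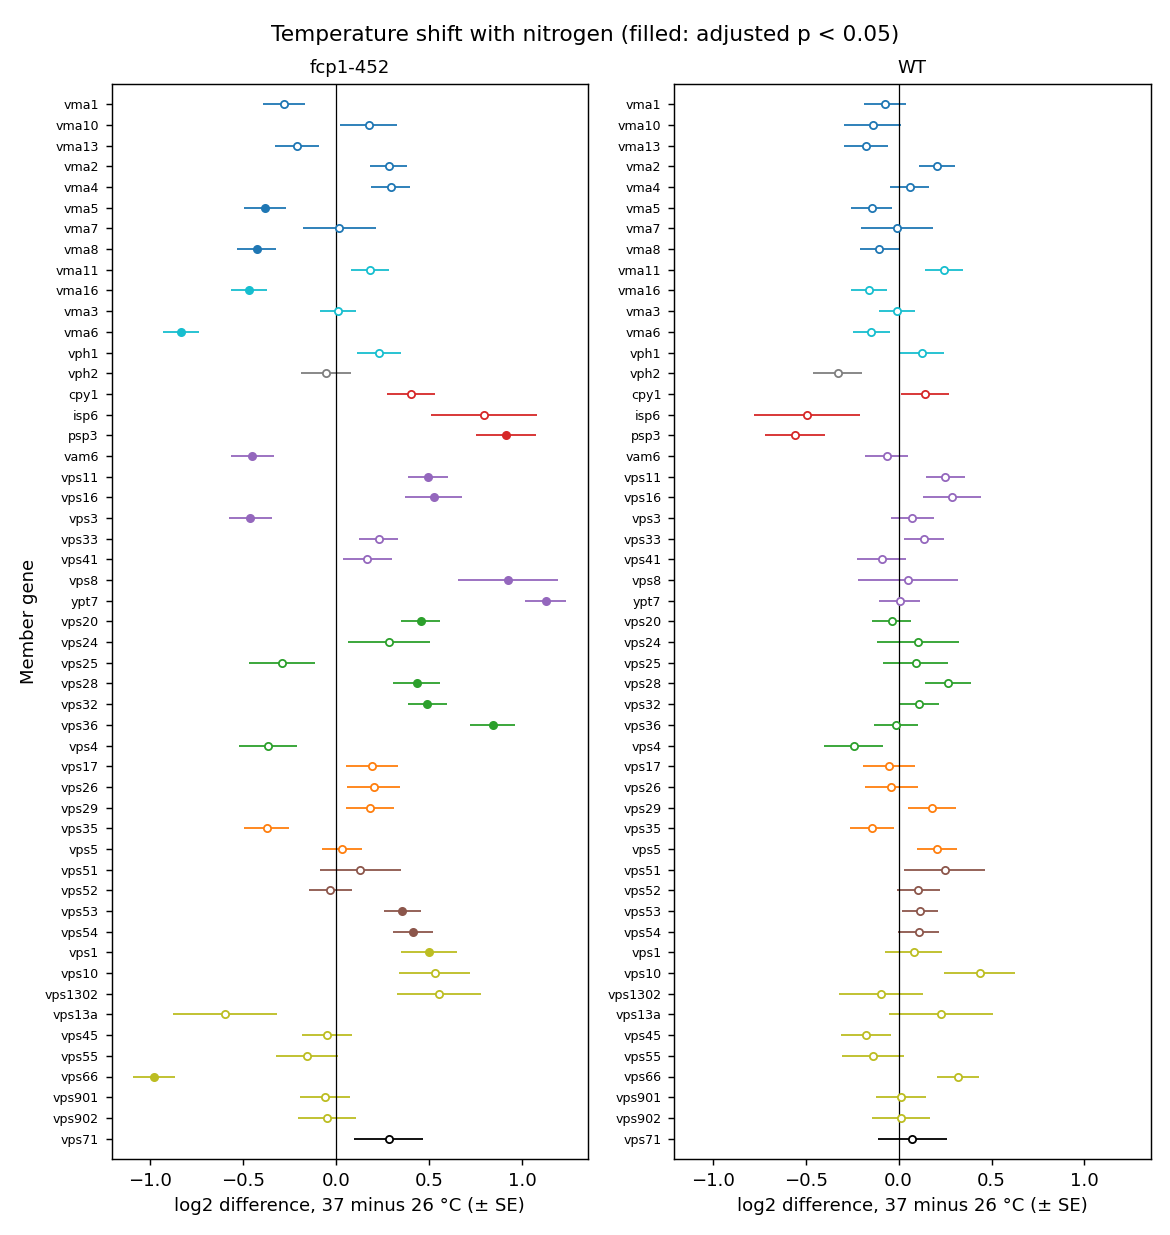
Points are limma log2 differences, 37 minus 26 °C with nitrogen, with SE as bars, in fcp1-452 (left) and WT (right) for the 51 genes; filled points have an adjusted p under 0.05. In fcp1-452, 19 points are filled, from -0.98 (vps66) to 1.13 (ypt7), and in WT none.

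In WT the same shift changed none of the 51 genes, where 0.54% of all probe sets passed (0.32% higher, 0.22% lower). At an unadjusted p under 0.05 there were 2, and the differences ran from -0.56 for psp3 to 0.44 for vps10, with SEs of 0.10 to 0.29. The protease genes psp3 and isp6 were the lowest, while the hydrolase gene cpy1 had a difference of 0.14. For psp3 the values were -0.26 and -0.84 in WT at 37 °C, against 0.07 and -0.06 at 26 °C (-0.56 ± 0.16, limma, adjusted p = 0.147). For isp6 the difference was -0.49 ± 0.29 (limma, adjusted p = 0.395). After quantile normalization psp3 was called (-0.93, adjusted p = 0.0362), and isp6 was called (adjusted p = 0.0493) when either fed sample of fcp1-452 at 37 °C was left out.

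The strains themselves were then compared. At 37 °C with nitrogen 6 of the 51 genes were higher and 4 lower in fcp1-452 than in WT, where 34.0% of all probe sets passed, 14.7% higher and 19.2% lower. The protease genes psp3 and isp6 led, while cpy1, the other hydrolase gene, differed by 0.27 and did not pass. The values of psp3 were 0.92 and 0.95 in fcp1-452, against -0.26 and -0.84 in WT. Its difference was 1.49 ± 0.16 or 2.81-fold (limma, adjusted p = 0.0037). Likewise isp6 was at 0.44 and 1.16 in fcp1-452, against -0.22 and -0.71 in WT (1.26 ± 0.29, adjusted p = 0.0223). No mutant sample overlapped WT for either gene, and part of each difference lay in the low WT values.

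Also higher were ypt7 (1.17 ± 0.11, adjusted p = 0.00297), vps36 (0.84 ± 0.12), vps20 (0.47 ± 0.11) and vps32 (0.42 ± 0.10). Lower were vps66 (-1.14 ± 0.11, adjusted p = 0.00312), vps3 (-0.57 ± 0.12), vma6 (-0.52 ± 0.10) and vam6 (-0.44 ± 0.12). None of the 8 V1 genes passed, their differences lying between -0.23 and 0.27. The count of 10 was 3 without the replicate block (psp3, vps66 and ypt7), 3 and 4 without WT at 37 °C replicates 1 and 2, and 20 without fcp1-452 at 37 °C replicate 1.

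At 26 °C with nitrogen none of the 51 differed between the strains by limma, as for all 4999 probe sets (0.0%), and none had an unadjusted p under 0.05. The differences ran from -0.13 for vma10 to 0.21 for vps51, with a median absolute difference of 0.05. The other 2 of the 3 largest were vma6 (0.17 ± 0.10) and vps66 (0.16 ± 0.11).

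The test of whether the response to 37 °C differed between fcp1-452 and WT with nitrogen was passed by 5 genes, 3 with a more positive and 2 with a more negative response in the mutant, where 11.8% of all probe sets passed (4.12% positive, 7.68% negative). They were psp3 (1.47 ± 0.23, adjusted p = 0.0233), ypt7 (1.12 ± 0.16, adjusted p = 0.0194), vps36 (0.86 ± 0.17, adjusted p = 0.0358), vps66 (-1.30 ± 0.16, adjusted p = 0.0155) and vma6 (-0.69 ± 0.14, adjusted p = 0.0374). For isp6 the interaction of 1.29 ± 0.40 did not pass (adjusted p = 0.0914). No gene passed without the replicate block, after quantile normalization, or without any single sample of WT or of fcp1-452 at 26 °C, while 12 and 8 passed without fcp1-452 at 37 °C replicates 1 and 2.

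**Figure D4:**
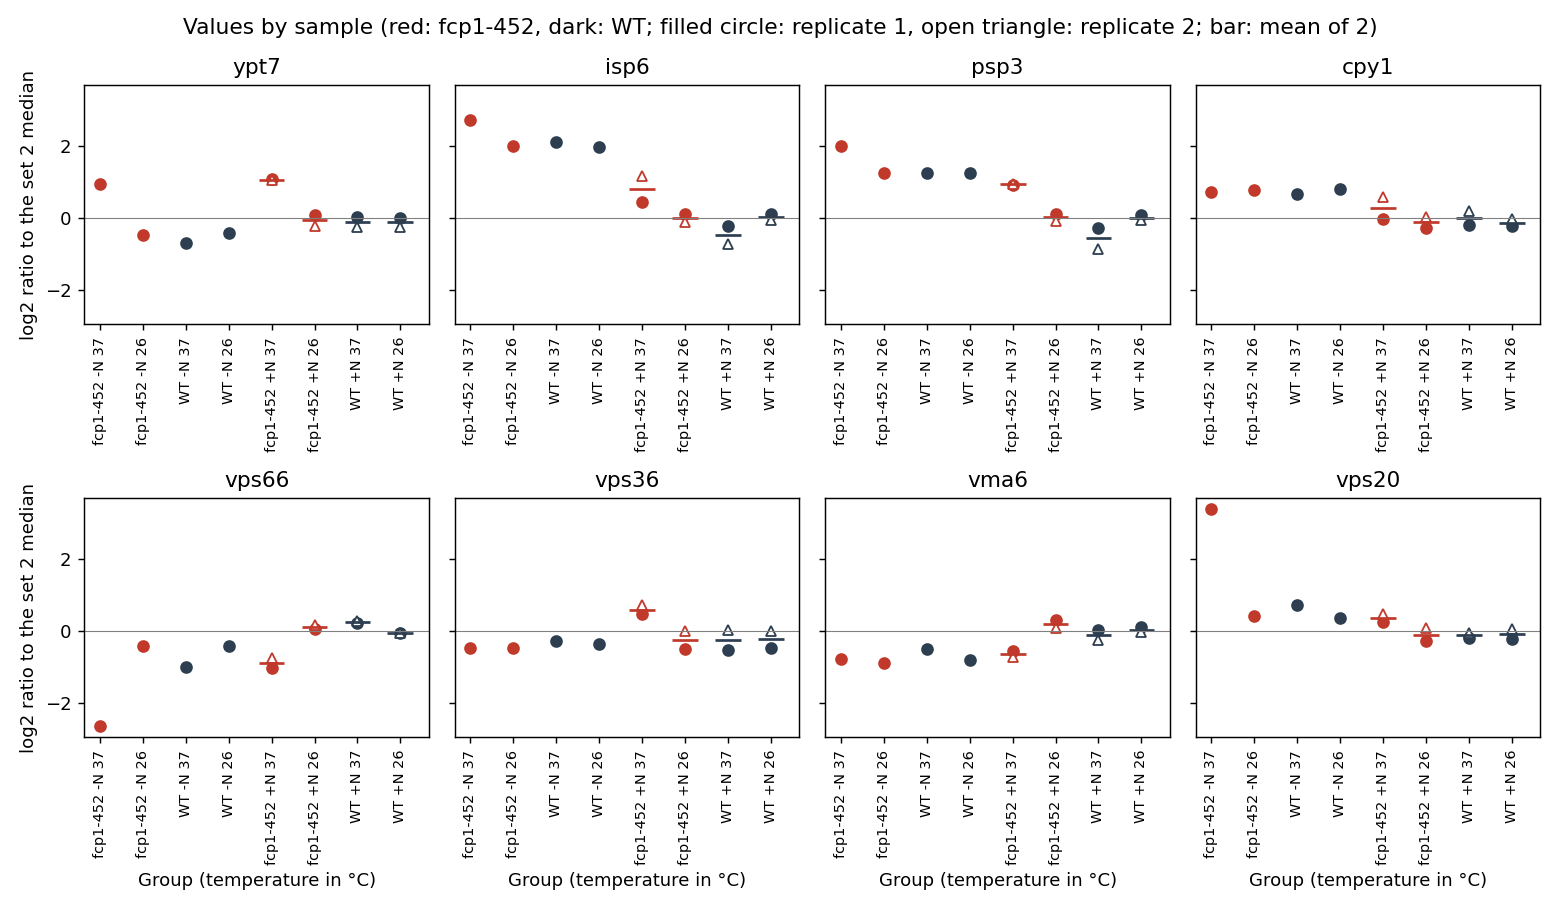
Each point is a sample's log2 ratio to the set 2 median for 8 genes, by group, with the 4 starved groups on the left, fcp1-452 in red and WT in dark; bars are means of the 2 samples of a group with nitrogen. Among fed groups ypt7 and vps36 are high, and vps66 and vma6 low, in fcp1-452 at 37 °C, and vps20 reaches 3.38 in starved fcp1-452 at 37 °C alone.

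Starvation and the mutant at 37 °C are compared over shared +N samples, so their values are only set side by side. For ypt7 the difference was -0.46 on starvation and 1.13 in the fed mutant at 37 °C, for vps66 it was -0.92 and -0.98, and for vma6 -0.71 and -0.83. For vps3 it was 0.27 and -0.46, and for psp3 1.22 and 0.91. Of the 16 genes called in both comparisons, 8 had the same direction and 8 the opposite one. The same count was not made over all probe sets.

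Without nitrogen, the strains differed little in these genes at 26 °C and widely at 37 °C. At 26 °C the difference of fcp1-452 from WT ran from -0.25 to 0.12, with none of 51 genes at 2-fold (against 0.46% of all probe sets). At 37 °C it ran from -1.87 to 2.65, with 12 at 2-fold or more (23.5%, against 34.5% of all probe sets). In fcp1-452 the temperature difference ran from -2.23 to 2.96, with 15 at 2-fold or more (29.4%, against 36.2% of all probe sets), and in WT from -0.75 to 0.77 with none (against 5.76% of all probe sets). These are differences of single samples and carry no test.

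The starved mutant at 37 °C was set against the mean of the other 3 starved samples. It lay outside their range for 47 of 51 genes (92.2%), against 86.9% of all probe sets, and 6 genes were higher and 7 lower by 2-fold or more (25.5%, against 34.8% of all probe sets). Higher were vps20 (by 2.88), vps5 (2.11), vma4 (1.62), ypt7 (1.48), vps25 (1.29) and vps71 (1.13). Lower were vps66 (-2.02), vps29 (-1.85), vps3 (-1.81), vma5 (-1.57), vma13 (-1.24), vam6 (-1.05) and vps55 (-1.04).

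Some genes stayed near the other starved samples. The difference from the other 3 was -0.02 for cpy1, -0.04 for vma6 and -0.09 for vps36. So the genes low or high in the fed mutant at 37 °C did not all stand out in the starved mutant at 37 °C: ypt7 (0.95, against -0.46, -0.68 and -0.42) and vps66 (-2.63, against -0.41, -1.0 and -0.42) did, whereas vma6 (-0.76, against -0.88, -0.50 and -0.79) and vps36 (-0.46, against -0.47, -0.28 and -0.36) did not. The 37 minus 26 °C difference in starved fcp1-452 had the sign seen with nitrogen for 13 of the 19 genes called there (68.4%), against 1350 of 1995 called probe sets (67.7%).

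**Figure D5:**
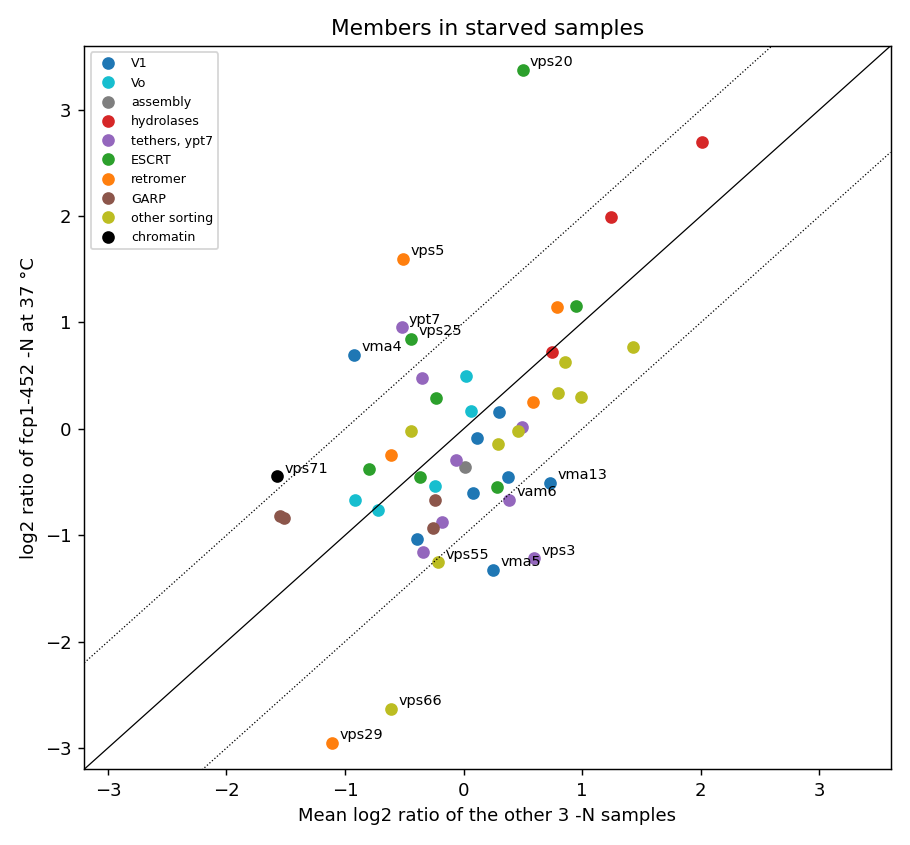
Each point is 1 of the 51 genes: the vertical axis is its log2 ratio in fcp1-452 -N at 37 °C, the horizontal axis its mean in the other 3 starved samples, the solid line is equality and dotted lines are 2-fold. The 13 labelled genes lie outside 2-fold, with vps20 at the top (3.38) and vps29 and vps66 at the bottom (-2.95 and -2.63).

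Without starved fcp1-452 at 37 °C, the comparisons among starved cells become different ones. The strain difference and the strain by nitrogen interaction are then those at 26 °C alone, and the temperature difference is that of WT alone. A loss of calls there cannot show whether the averaged calls rest on an odd sample or on the mutant at 37 °C. Averaged over temperatures, 6 of the 51 genes were higher and 9 lower in fcp1-452 than in WT without nitrogen. Of all probe sets 37.4% passed (18.8% higher, 18.6% lower). At 26 °C alone none of the 51 passed. Averaged over strains, 8 genes were higher and 11 lower at 37 than at 26 °C without nitrogen. Of all probe sets 46.1% passed (24.3% higher, 21.8% lower). In WT alone none of the 51 passed. The SEs were then larger. Some temperature differences of WT alone were near the average over both strains. For vps4 they were -0.75 against -0.91, for vps51 0.77 against 0.96, for vps45 -0.40 against -0.47 and for vma8 -0.35 against -0.48. Others were not, such as vps3 at -0.03 against -0.85 and vps20 at 0.38 against 1.67. The strain by nitrogen interaction was passed by 9 genes, 3 more positive and 6 more negative on starvation in fcp1-452, where 17.4% of all probe sets passed (8.84% positive, 8.54% negative). The interaction was passed by none without that sample and by none without the replicate block; leaving out any 1 sample of WT or of fcp1-452 at 26 °C with nitrogen gave 0 or 1, and leaving out fcp1-452 at 37 °C with nitrogen, replicates 1 and 2, gave 22 and 15. Leaving out either of the same 2 gave 25 for the strain difference and 28 for temperature. After quantile normalization all 3 counts were 0, and without the block they were 5 for strain and 9 for temperature.

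Among the largest differences were these. For vps20 the strain difference was 1.36 ± 0.11 and the temperature difference 1.67 ± 0.11 (adjusted p = 0.000883). For vps3, which was at -1.22 in starved fcp1-452 at 37 °C, against 0.44 in fcp1-452 at 26 °C, 0.65 in WT at 37 °C and 0.68 in WT at 26 °C, the strain difference was -1.05 ± 0.12 (adjusted p = 0.00378). The temperature difference was 1.25 ± 0.11 for vps5 and -1.40 ± 0.11 for vps66. All these averages include the single starved sample of fcp1-452 at 37 °C. Without it, the strain difference, then at 26 °C alone, was 0.06 for vps20 and -0.24 for vps3. The temperature difference, then of WT alone, was 0.38 for vps20, 0.26 for vps5 and -0.58 for vps66.

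A list of other vacuolar and endosomal genes, 39 of them measured, showed the wider pathway. On starvation 20 of 39 rose and 7 fell (21 and 9 without starved fcp1-452 at 37 °C), where 33.9% of all probe sets were higher and 38.2% lower (32.2% and 38.1% without that sample). Those of 2-fold or more were sst4 of ESCRT-0 (1.95 ± 0.08, limma, adjusted p = 2.99e-05), the Rab5 gene ypt5 (1.29 ± 0.08), and ape2 (1.07 ± 0.08) and ams1 (1.07 ± 0.12), an aminopeptidase and an alpha-mannosidase delivered to the vacuole from the cytosol. Falls of that size were those of aps1 (-1.26 ± 0.19) and the SNARE gene tlg2 (-1.14 ± 0.07). The gene aps1 was listed with the coats by its name alone, and whether it encodes a coat subunit was not checked. Without starved fcp1-452 at 37 °C aps1 was at -1.62, and the cargo gene ape4 (1.15) and the vacuolar membrane gene vtc4 (1.06) also reached 2-fold. The 3 cargo genes of the route from the cytosol all rose. Of 8 genes listed as coats, aps1 among them, 1 rose and 5 fell.

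In fcp1-452 at 37 °C with nitrogen 11 of the 39 rose and 2 fell relative to 26 °C, where 17.8% of all probe sets were higher and 22.1% lower. In WT 0 of 39 passed, where 0.54% of all probe sets did. The phosphatidylinositol 3-kinase gene pik3, known in budding yeast as VPS34, rose in the mutant (1.16 ± 0.12, adjusted p = 0.00228) and was higher than in WT at 37 °C (1.04 ± 0.12). The sorting nexin gene snx3 responded more negatively in the mutant than in WT (-1.11 ± 0.15, adjusted p = 0.0194). In starved cells vcx1, of a vacuolar cation exchanger, was higher in fcp1-452 than in WT (1.19 ± 0.14), and snx3 was higher at 37 than at 26 °C (1.09 ± 0.11), both averages that include starved fcp1-452 at 37 °C. Neither passed without that sample, when vcx1 was at -0.21 between the strains at 26 °C alone and snx3 at 0.76 between temperatures in WT alone.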

How the data were processed

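Polyadenylated RNA was hybridised to 16 Affymetrix arrays in 2 sets of 8, per the labels' protocols. The deposited values are linear ratios of 4999 probe sets. Per the submitters' processing notes, RMA was used; its version is not stated. Within each set every probe set has a median of 1 (largest departure 0.00025), a step the sources used here do not describe. The number of arrays limits the precision.

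For each group with nitrogen, set 1 and replicate 1 of set 2 nearly coincided (r = 0.975 to 0.990, against 0.652 to 0.765 with replicate 2), so each such pair was averaged and counted as 1 sample. Set 1, which holds all arrays without nitrogen, was first moved onto set 2's scale, using the mean difference of the 4 pairs for every probe set. This left 12 samples. Nothing says that replicates were separate cultures, so p-values measure only how these samples spread, possibly for technical reasons.

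The model was fitted to log2 values by limma 3.58.1 (R 4.3.3; lmFit, eBayes; 3 residual degrees of freedom), with 8 group means and the replicate number as a block, for 9 comparisons, and was tested on simulated data. Replicate differences correlated between groups (r = 0.640 to 0.870 over 6 pairs of groups), so the replicate numbers in the labels pair the samples. All 51 members were found in the RefSeq table of assembly ASM294v3. Of 4999 probe sets 2917 had 1 gene, 20 several and 2062 none; of 51 further pathway names 39 were measured as non-members. Members, lists and tests were chosen with earlier results of these data known. Values of all samples were given for each gene called at 2-fold or more in any comparison, the 3 largest differences of each comparison, and ypt7, cpy1, isp6 and psp3, 17 genes in all. Sequences and coordinates were not analysed here.

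Alternatives were 16 arrays with the set as a term, no replicate block, quantile normalization, a pseudocount of 0.1, leaving out probe sets with a ratio under 0.1, a robust prior, set 2 alone and each replicate left out. Leaving out starved fcp1-452 at 37 °C was added after seeing the data.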

Additional observations from a re-analysis of the deposited data

Results flagged for a closer look

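The response to 37 °C with nitrogen differed between fcp1-452 and WT, by the test of the difference itself, for psp3 (1.47), ypt7 (1.12), vps36 (0.86), vma6 (-0.69) and vps66 (-1.30). None of them passed without the replicate block or after quantile normalization. The share of 9.8% of the members was below the 11.8% of all probe sets. For ypt7 the 37 minus 26 °C difference was 1.13 in fcp1-452 and 0.01 in WT, for vps36 0.84 and -0.02, and for vma6 -0.83 and -0.15. For psp3 and vps66 the signs were opposite, 0.91 in fcp1-452 against -0.56 in WT and -0.98 in fcp1-452 against 0.32 in WT, with neither WT value called.

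The response to starvation, averaged over both temperatures, differed between fcp1-452 and WT for vps20 (1.13), vps5 (0.91), vma4 (0.65), vma13 (-0.58), vma5 (-0.62), vps54 (-0.63), vps41 (-0.64), vps3 (-0.75) and vps29 (-1.05). Without the single starved fcp1-452 sample at 37 °C, this difference between the strains is that at 26 °C alone. The values of these 9 genes then lay between -0.20 (vps3) and 0.08 (vps20). With 37 °C gone from the comparison, they cannot show whether the averaged differences rest on an odd sample or on the mutant at 37 °C.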

How the results depend on the processing

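Of the 51 genes, the number passing moved with the replicate block, with normalization and with single samples. Counts over all probe sets under the same alternatives are not set beside them here. Whether these genes lost calls more often than the array as a whole can therefore not be read from them. No replicate block gave 4 in fcp1-452 at 37 against 26 °C with nitrogen, 3 for fcp1-452 against WT at 37 °C, 0 for both interactions, and without nitrogen 5 between strains and 9 between temperatures, against 28 of 38 on starvation. Quantile normalization gave 10, 6, 0 and 0, and 0 and 0 for the same comparisons, 23 on starvation and 1 for WT at 37 against 26 °C. Leaving out 1 sample at a time (each fed sample, and of the starved only fcp1-452 at 37 °C) gave 3 to 27 in fcp1-452 at 37 against 26 °C, 0 to 1 in WT, 3 to 20 between strains at 37 °C, 0 to 12 for strain by temperature, 32 to 40 on starvation, 0 to 22 for strain by nitrogen, 0 to 25 between starved strains and 0 to 28 between temperatures in starved cells; between strains at 26 °C it was always 0. Set 2 alone, which holds no starved sample, the pseudocount, the robust prior, the low-ratio filter and 16 arrays with a set term kept every count within 1.5 times. Of 115 member values that passed, 92 still passed with 16 arrays, 115 with the filter, 113 with the pseudocount, 114 with the robust prior, 49 without the block and 37 after quantile normalization; the cause was not tested. Signs turned without starved fcp1-452 at 37 °C, when the temperature difference is that of WT and the strain comparisons are those at 26 °C. Over left-out samples the temperature difference in starved cells ran from -0.025 to 0.71 for vps25 and -0.26 to 0.58 for ypt7. The starved strain difference ran from -0.54 to 0.022 for vma13, -0.73 to 0.038 for vma5, -0.086 to 0.91 for vps5, -0.81 to 0.017 for vps66, -0.12 to 0.61 for vps71 and -0.040 to 0.80 for ypt7. The strain by nitrogen interaction ran from -0.016 to 0.69 for vma4, -0.68 to 0.033 for vma5, -0.80 to 0.011 for vps1302, -0.24 to 0.80 for vps25 and -0.18 to 0.95 for vps5. Between strains at 26 °C vps51 ran from -0.14, without WT replicate 2, to 0.55, and vps53 on starvation was 0.056 after quantile normalization. The planned count of promoter motifs was not run. Signal over background was not kept in the deposited ratios, so what it limits cannot be given.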

Other observations

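Rab5 and Rab7, which mark the early endosome and the vacuole in turn, differed in direction on starvation: ypt5 rose by 1.29 ± 0.08 and ypt7 stood at -0.46 ± 0.08 (limma, adjusted p = 7.68e-05 and 0.00287). The second Rab7-type gene, ypt71, was at 0.06 ± 0.08 and did not pass.

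Of the 51 members 5 passed in none of the 9 comparisons and 16 in just 1. The same count was not made over all probe sets, so it cannot be read as a trait of these genes. The ring gene vma3 hardly varied with nitrogen, its 8 fed samples lying between -0.05 and 0.05, and reached 0.49 in starved fcp1-452 at 37 °C.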
